A study of Mus musculus with 6 samples.

Results

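The 36 genes described here belong to glycolysis and to the cellular response to low oxygen, and were taken by symbol from 55487 genes in the count tables. Of these, 18 encode glycolytic enzymes, PFKFB regulators and carriers of glucose and lactate, and 18 encode hypoxia-inducible factor (HIF) subunits, their hydroxylases and genes that low oxygen is known to induce. All 36 matched a gene identifier on GRCm38, and 35 had enough reads to be tested. RNA was sequenced from untreated primary hepatocytes in culture, isolated from chow-fed littermates on the B6CBAF1 background. Of the 6 libraries, 3 came from WT mice and 3 from Alb/MDA-9 mice, heterozygotes that carry human MDA-9/SDCBP with a C-terminal HA tag behind the mouse albumin enhancer and core promoter. MDA-9/SDCBP, also named syntenin, is a PDZ-domain scaffold protein, and the albumin promoter is active in hepatocytes. The labels give neither the age and sex of the mice nor the oxygen level of the cultures. The labels do not state whether the 3 libraries of a group came from different animals, and the tests below see only how these libraries spread, which may be technical in part.

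In glycolysis, glucose enters the cell through SLC2A carriers, is phosphorylated by hexokinases, is cleaved and oxidised to pyruvate, and can leave as lactate through SLC16A carriers. Hepatocytes in the liver rely on their own isoforms for several of these steps, among them liver pyruvate kinase and the carrier SLC2A2. When oxygen is present, prolyl hydroxylases of the EGLN family mark HIF alpha subunits for recognition by VHL and for degradation. When oxygen is low, the alpha subunits persist, pair with ARNT and bind the core motif ACGTG or GCGTG near target genes, which include most glycolytic enzymes.

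The core motif was looked up in RefSeq promoter windows of GRCm38.p6, which run from 250 bases before to 50 bases after a transcript start. A window was available for 33 members, and where a gene had several, the one nearest to the GENCODE start of the gene was taken. The windows below are those of Adm, Eno2, Ldha and Tpi1, which are among the members that passed the test between genotypes. That of Bnip3, whose level differed among the Alb/MDA-9 libraries, is also given. They are printed 5′ to 3′ on the strand of the gene, with matches to ACGTG or GCGTG on either strand in capitals.

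Adm, chr7:110627407-110627706, plus strand: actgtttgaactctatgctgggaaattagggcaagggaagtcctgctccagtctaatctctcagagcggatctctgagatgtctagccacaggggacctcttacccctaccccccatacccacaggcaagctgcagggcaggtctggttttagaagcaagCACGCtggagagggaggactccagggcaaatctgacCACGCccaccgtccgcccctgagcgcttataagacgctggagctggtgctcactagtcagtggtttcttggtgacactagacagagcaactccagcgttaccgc

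Eno2, chr6:124769624-124769923, minus strand: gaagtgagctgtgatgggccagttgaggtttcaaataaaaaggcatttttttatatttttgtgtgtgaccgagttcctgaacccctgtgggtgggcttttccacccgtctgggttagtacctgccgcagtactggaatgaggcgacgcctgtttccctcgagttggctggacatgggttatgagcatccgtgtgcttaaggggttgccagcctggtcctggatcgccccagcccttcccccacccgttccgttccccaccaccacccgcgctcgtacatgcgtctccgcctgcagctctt

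Ldha, chr7:46845554-46845853, plus strand: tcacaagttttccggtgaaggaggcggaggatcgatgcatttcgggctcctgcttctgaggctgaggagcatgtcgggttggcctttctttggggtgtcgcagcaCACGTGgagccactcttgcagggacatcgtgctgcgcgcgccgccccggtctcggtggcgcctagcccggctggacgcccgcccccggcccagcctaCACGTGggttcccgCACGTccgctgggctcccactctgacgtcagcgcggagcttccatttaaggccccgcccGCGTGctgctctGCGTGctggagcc

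Tpi1, chr6:124814109-124814408, minus strand: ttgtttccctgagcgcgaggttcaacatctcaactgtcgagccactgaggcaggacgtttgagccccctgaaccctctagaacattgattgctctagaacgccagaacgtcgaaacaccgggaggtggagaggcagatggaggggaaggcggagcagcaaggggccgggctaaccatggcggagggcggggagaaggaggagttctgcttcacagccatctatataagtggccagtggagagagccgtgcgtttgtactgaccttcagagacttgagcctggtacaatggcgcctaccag

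Bnip3, chr7:138909457-138909756, minus strand: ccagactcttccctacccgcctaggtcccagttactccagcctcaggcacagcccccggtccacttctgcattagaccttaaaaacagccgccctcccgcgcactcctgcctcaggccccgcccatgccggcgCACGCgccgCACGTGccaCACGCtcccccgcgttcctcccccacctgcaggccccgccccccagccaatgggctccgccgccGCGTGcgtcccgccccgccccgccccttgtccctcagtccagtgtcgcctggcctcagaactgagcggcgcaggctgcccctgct

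The Adm window held 2 matches, at 90 and 54 bases before the start, and the Ldha window held 7, the Bnip3 window 5 and the Eno2 and Tpi1 windows 0. The nearest Ldha window lay 4329 bases from the GENCODE start, and the 4 others at most 138 bases. The palindrome CACGTG matches on both strands and counts as 2, and it was present in the windows of Ldha, Bnip3 and Hif1a. Hk1 and Gapdh also passed the test, and their windows, not printed, held 0 and 3 matches. At least 1 match was found in 12 of 18 windows of glycolysis members (66.7%) and 13 of 15 windows of hypoxia members (86.7%). Hk1, Aldoa, Pkm, Vegfa and Mxi1 had no match in the nearest window but had a match in another window of the gene. The share was 43.8% over all 32817 windows, 60.9% over the windows of the genes tested and 72.3% over those of them with a GC content of at least 60%. These shares count every window of a gene, while each member was counted with 1 window. The median GC content was 63.5% in the windows of the glycolysis members and 69.0% in those of the hypoxia members, against 52.7% in all windows. These matches describe the letters of the windows and not binding.

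The libraries held 16403918 to 19046739 reads assigned to genes in the sense direction, and levels are given in CPM, the usual depth-scaled read count, here with TMM factors. Before TMM scaling, 3 reads correspond to 0.158 to 0.183 CPM at this depth. Counting error alone would still allow that level for a gene with 0 reads. The second principal component of log2 (CPM + 0.5), with 16.7% of the variance, set Alb/MDA-9 3 apart from the other libraries. Alb/MDA-9 3 also had the smallest share of reads mapped to several places, 18.7% against 19.3% to 20.2% in the others. All 12 hepatocyte markers were present, with Alb at 56540 CPM in WT, against 63060 CPM in Alb/MDA-9 on average. The test described below called 7.35% of all genes higher and 7.09% lower. Of the hepatocyte markers 2 were higher and 1 lower, 5 had a log2 change above 0, and the median was -0.10. Of the markers of other cells, 9 of 12 for Kupffer cells, 5 of 10 for endothelial cells and 5 of 11 for stellate cells were lower in Alb/MDA-9. Their summed levels were 435 to 450.2 CPM in WT, against 251 to 407 CPM in Alb/MDA-9 for Kupffer cells. The low end was Alb/MDA-9 3 and came from Cd68, with 322, 284 and 137 CPM in Alb/MDA-9 1 to 3. Only 2 of the 12 Kupffer markers were lower in Alb/MDA-9 3 than the mean of Alb/MDA-9 1 and 2, and the median log2 difference was 0.26. The sums were 260.2 to 283 and 198 to 215 CPM for endothelial cells and 305 to 323 and 207 to 268 CPM for stellate cells. Of 5 tested cholangiocyte markers 3 were higher and 1 lower, with sums of 52.8 to 60.9 CPM in WT, against 252 to 360.1 CPM in Alb/MDA-9, most of the latter from Spp1, and Cftr had 0 reads. Of 9 tested cell-cycle genes 8 were lower. The part of these differences in the results below was not tested, and in bulk RNA fewer cells of a type and less RNA per cell cannot be told apart.

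Of the 18 glycolysis members, 3 rose in Alb/MDA-9 (Hk1, Tpi1 and Ldha), 2 fell (Eno2 and Gapdh) and 13 did not pass the test. Of the 17 hypoxia members tested, 1 fell (Adm), 0 rose and 16 did not pass. The test was the quasi-likelihood test of edgeR with Benjamini-Hochberg adjustment over 13296 genes at a threshold of 0.05, which called 7.35% of all genes higher and 7.09% lower. At an unadjusted p under 0.05, 2 hypoxia members were higher and 3 lower. The share of all genes at that threshold was not counted. Of the other tools, DESeq2 called 1 hypoxia member higher (Higd1a) and 1 lower, against 986 and 958 of all 13296 genes. With limma voom with quality weights 2 were higher (Higd1a and Bnip3l) and 2 lower, against 1305 and 1291 of all genes. The median log2 change was 0.12 over the glycolysis members and -0.08 over the hypoxia members, against -0.0015 over all genes tested. For 10 of the 35 members every Alb/MDA-9 library lay on the same side of every WT library, 4 above and 6 below, while this held for 33.6% of all genes.

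**Figure D1:**
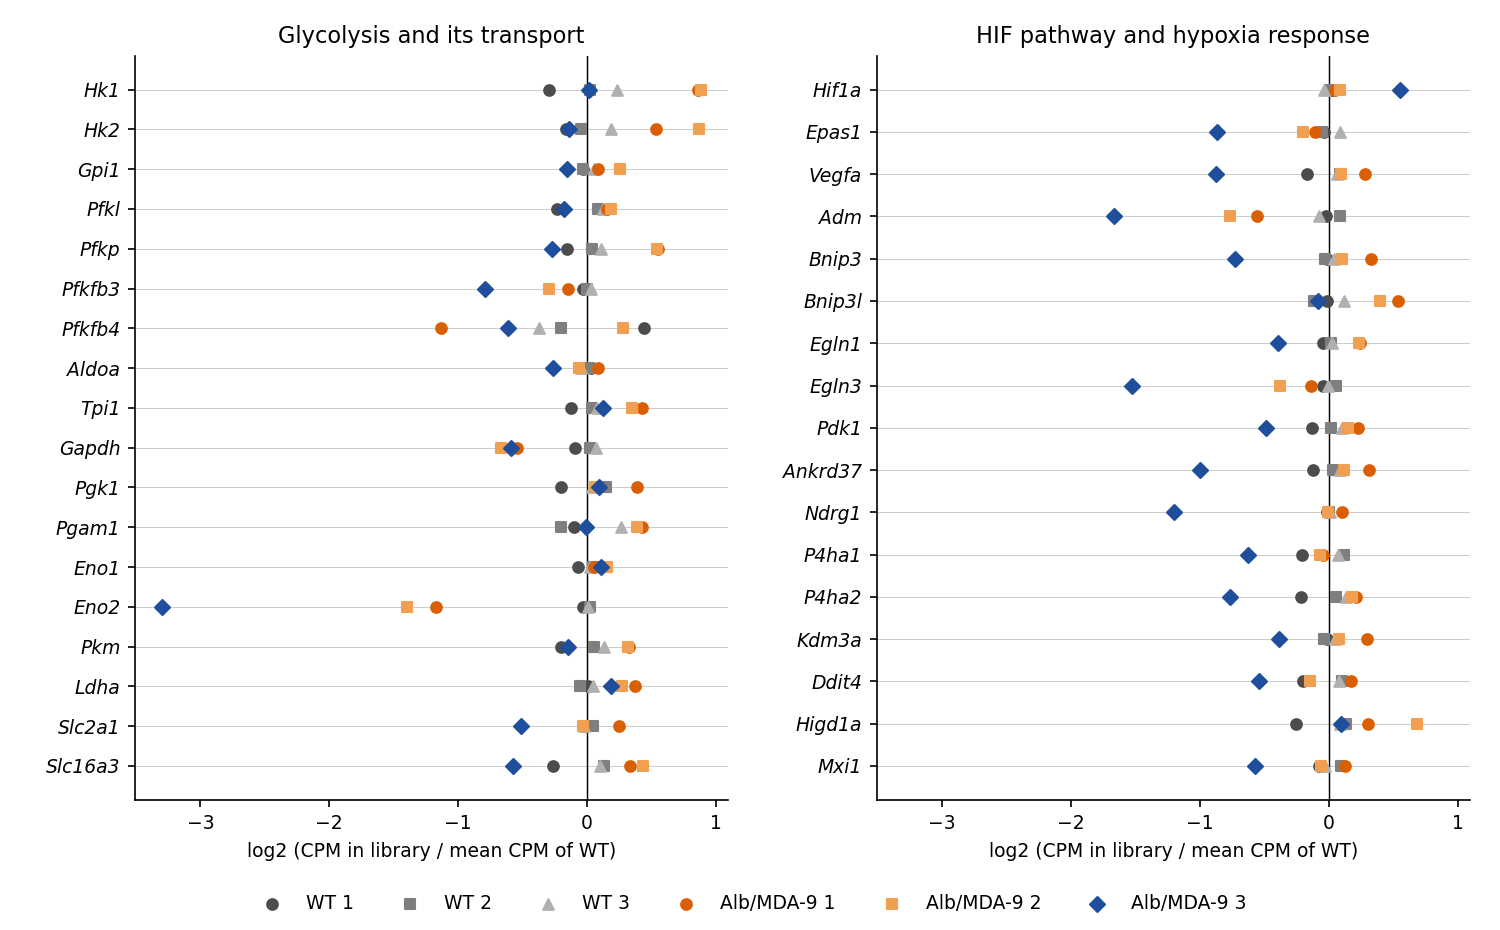
Level of each tested member in each library, as log2 of its CPM over the mean CPM of the 3 WT libraries, with grey symbols for WT and coloured symbols for Alb/MDA-9. The blue diamonds of Alb/MDA-9 3 lie to the left of every other library for 14 of the 17 hypoxia members, while Eno2 and Adm lie left of WT in all 3 Alb/MDA-9 libraries.

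Eno2 (ENSMUSG00000004267, chr6:124760053-124769673, minus strand), which encodes the gamma form of enolase known from neurons, had the largest change among the members. It stood at 44.7, 46.2 and 45.9 CPM in WT 1 to 3 and at 20.3, 17.3 and 4.64 CPM in Alb/MDA-9 1 to 3. WT libraries lay close together, every Alb/MDA-9 library was below them, and Alb/MDA-9 3 was the lowest of all. The log2 change was -1.69 (SE 0.32, edgeR adjusted p = 0.00372). Without Alb/MDA-9 3 it was -1.28 (SE 0.09, edgeR adjusted p = 2.95e-07). Eno2 was the only member whose own count fell at least 2-fold, and none rose that far, against 2.64% and 0.985% of all genes. The other enolase gene, Eno1, which encodes the widespread alpha form, had 194, 210.4 and 206 CPM in WT, against 211, 226 and 219 CPM in Alb/MDA-9. All its Alb/MDA-9 libraries were above WT by a small margin, and the difference did not pass (log2 change 0.10, SE 0.07, edgeR adjusted p = 0.352). With library totals in place of TMM factors the change of Eno1 was -3.63e-06. Eno1 has a near-identical copy, Eno1b, with which reads may be shared.

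Adm (ENSMUSG00000030790, chr7:110627661-110629820, plus strand) encodes adrenomedullin, a vasodilator peptide and a known HIF target. Its levels were 62.6, 67.5 and 60.1 CPM in WT, against 43.2, 37.2 and 19.99 CPM in Alb/MDA-9. The groups did not overlap, and Alb/MDA-9 3 was again lowest. The log2 change was -0.92 (SE 0.19, edgeR adjusted p = 0.00718), and -0.66 without Alb/MDA-9 3 (SE 0.09, edgeR adjusted p = 0.000105). The falls of Eno2, Adm and Gapdh passed the test in all 6 fits that left out 1 library, with edgeR adjusted p of at most 0.0161 for Eno2, 0.0329 for Adm and 0.00898 for Gapdh.

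Gapdh (ENSMUSG00000057666, chr6:125161715-125166467, minus strand) encodes glyceraldehyde-3-phosphate dehydrogenase. It had 29.7, 32.3 and 33.2 CPM in WT, against 21.7, 19.97 and 21.01 CPM in Alb/MDA-9, and its log2 change was -0.60 (SE 0.09, edgeR adjusted p = 0.000891). Its counts do not measure its transcript, because 91 other genes share a stretch of at least 200 bases at 95% identity or more. Of the reads assigned to Gapdh or to its 89 pseudogene copies, 95.2% were assigned to the copies. Summed with them, the level was 752, 753 and 660.1 CPM in WT, against 409, 314 and 333 CPM in Alb/MDA-9, a log2 change of -1.04, or more than a 2-fold fall. Most reads of the copies were assigned to 1 processed pseudogene, Gm13394 on chr2. It had 13600, 13436 and 10000 reads in WT, against 6365, 4532 and 4644 reads in Alb/MDA-9. The summed level therefore mostly follows this 1 locus. The groups did not overlap in the count of Gapdh or in the sum. Reads that fit several copies equally well are counted for none, so the size of this fall is uncertain.

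By reads that map to a single place, Tpi1 and Ldha had the highest levels among the members per kb of exon. Tpi1 (ENSMUSG00000023456, chr6:124810586-124814296, minus strand), the triose phosphate isomerase gene, averaged 462 CPM per kb in WT, and Ldha (ENSMUSG00000063229, chr7:46841475-46855627, plus strand), which encodes the lactate dehydrogenase subunit that favours lactate formation, averaged 380 CPM per kb. Aldoa followed with 232, Bnip3 with 101 and Gpi1 with 93.7 CPM per kb, and Gapdh stood at 7.67. At the other end of the tested members, Pfkfb4 had 0.472 CPM per kb. Members with near-identical copies may rank too low. Besides Gapdh, Pgk1 has 4 pseudogene copies and Pgam1 has 1, with identity of up to 100%, so their counts may miss reads. Tpi1 had 1167, 1307 and 1338 CPM in WT, against 1704, 1621 and 1384 CPM in Alb/MDA-9, so that the groups did not overlap but WT 3 and Alb/MDA-9 3 were close. The log2 change was 0.31 (SE 0.09, edgeR adjusted p = 0.0426). Ldha had 1266, 1207 and 1299 CPM in WT, against 1626, 1518 and 1428 CPM in Alb/MDA-9, with every Alb/MDA-9 library above WT (log2 change 0.28, SE 0.08, edgeR adjusted p = 0.0292).

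Hexokinases carry out the first step of glycolysis. Hk1 (ENSMUSG00000037012, chr10:62268855-62379908, minus strand) had 21.3, 26.5 and 30.7 CPM in WT, against 47.5, 48.3 and 26.4 CPM in Alb/MDA-9. Alb/MDA-9 1 and 2 lay above every WT library and Alb/MDA-9 3 lay among them (log2 change 0.64, SE 0.20, edgeR adjusted p = 0.0450). Hk2 had the same order, with 12.2, 13.3 and 15.6 CPM in WT, against 19.8, 25.0 and 12.4 CPM in Alb/MDA-9, and did not pass (edgeR adjusted p = 0.141), while limma voom gave an adjusted p of 0.0261. The calls of Tpi1, Ldha and Hk1 were not stable. Those of Tpi1 and Ldha were lost without WT 1, WT 2, WT 3, Alb/MDA-9 1 or Alb/MDA-9 2, and that of Hk1 without WT 1, WT 2, Alb/MDA-9 1 or Alb/MDA-9 2, with edgeR adjusted p of up to 0.15, 0.156 and 0.195 for Tpi1, Ldha and Hk1. All 3 were also lost with library totals in place of TMM factors, under which all genes had a median of -0.11.

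Among the remaining enzymes and carriers the changes did not pass in edgeR with all libraries. Pfkfb3, which encodes an enzyme that makes the activator of phosphofructokinase, had 73.5, 74.9 and 76.5 CPM in WT, against 67.5, 61.0 and 43.4 CPM in Alb/MDA-9. No library overlapped, and the log2 change of -0.39 (SE 0.13) had an edgeR adjusted p of 0.0600. Other fits of all 6 libraries called it lower, with adjusted p = 0.0234 in DESeq2, 0.0162 in limma voom and 0.0125 in edgeR with library totals. Its change was -0.22 without Alb/MDA-9 3 (edgeR adjusted p = 0.0579). The platelet-type phosphofructokinase gene Pfkp had 158, 180.0 and 189 CPM in WT, against 257, 256 and 145 CPM in Alb/MDA-9. Its Alb/MDA-9 1 and 2 were above and Alb/MDA-9 3 below every WT library. The pyruvate kinase gene Pkm had 234, 279 and 294 CPM in WT, against 337, 335 and 242 CPM in Alb/MDA-9. The lactate exporter gene Slc16a3 had 41.7, 54.9 and 53.7 CPM in WT, against 63.0, 67.6 and 33.6 CPM in Alb/MDA-9. The glucose carrier gene Slc2a1 had 170.0, 178 and 170 CPM in WT, against 205, 169 and 121 CPM in Alb/MDA-9. In each of these 4 genes Alb/MDA-9 3 was the lowest of its group, and for Pfkp, Slc16a3 and Slc2a1 it was the lowest of all 6. Aldoa, Gpi1, Pfkl, Pgk1, Pgam1 and Pfkfb4 overlapped between the groups, with log2 changes from -0.38 for Pfkfb4 to 0.28 for Pgam1.

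The subunits of HIF differed in which way Alb/MDA-9 3 departed. Hif1a had 121, 120.3 and 117 CPM in WT, against 123, 127 and 175 CPM in Alb/MDA-9, and all 3 Alb/MDA-9 libraries were above WT. The margin was narrow in Alb/MDA-9 1 and 2 and wide in Alb/MDA-9 3 (log2 change 0.25, SE 0.11, edgeR adjusted p = 0.183). The change was 0.064 without Alb/MDA-9 3 (SE 0.07). Epas1, which encodes HIF-2 alpha, had 121, 119 and 132 CPM in WT, against 115, 108 and 67.9 CPM in Alb/MDA-9, all below WT and lowest in Alb/MDA-9 3 (log2 change -0.36, SE 0.15, edgeR adjusted p = 0.138). It was -0.16 without Alb/MDA-9 3 (SE 0.07), and with library totals Epas1 passed (log2 change -0.46, edgeR adjusted p = 0.0376). Hif1a was the only hypoxia member that was highest in Alb/MDA-9 3.

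The prolyl hydroxylase genes are themselves HIF targets. Egln3 had 187, 200.1 and 192 CPM in WT, against 175, 148 and 67.1 CPM in Alb/MDA-9, with all Alb/MDA-9 libraries below WT (log2 change -0.57, SE 0.24, edgeR adjusted p = 0.139, limma voom adjusted p = 0.0295). Without Alb/MDA-9 3 the change was smaller, -0.255, but its SE was 0.08 and it passed (edgeR adjusted p = 0.0352). Egln1 had 108, 113 and 114 CPM in WT, against 132, 131 and 84.8 CPM in Alb/MDA-9. Alb/MDA-9 1 and 2 were above every WT library and Alb/MDA-9 3 below.

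The same split within the Alb/MDA-9 group ran through most genes induced by low oxygen. Ndrg1, a stress-responsive gene, had 536, 543 and 546 CPM in WT, with 583 and 540.3 CPM in Alb/MDA-9 1 and 2, and 236 CPM in Alb/MDA-9 3. Vegfa, which encodes the main vascular growth factor, had 299, 358 and 352 CPM in WT, with 408 and 360 CPM in Alb/MDA-9 1 and 2, and 183 CPM in Alb/MDA-9 3. Bnip3, which encodes a receptor for the removal of mitochondria, had 227, 225 and 237 CPM in WT, with 288 and 246 CPM in Alb/MDA-9 1 and 2, and 139 CPM in Alb/MDA-9 3. In all 3 genes Alb/MDA-9 3 was below every other library. The 5 others lay close together for Ndrg1 and spread more widely for Vegfa. Ankrd37 had 15.3, 16.97 and 17.6 CPM in WT, with 20.6 and 18.1 CPM in Alb/MDA-9 1 and 2, and 8.31 CPM in Alb/MDA-9 3. The collagen prolyl hydroxylase gene P4ha2 had 109, 133 and 139 CPM in WT, with 147 and 144 CPM in Alb/MDA-9 1 and 2, and 74.9 CPM in Alb/MDA-9 3. Pdk1, which encodes a kinase that restrains pyruvate dehydrogenase, had 136, 151 and 160 CPM in WT, with 175 and 166 CPM in Alb/MDA-9 1 and 2, and 106 CPM in Alb/MDA-9 3. With all 6 libraries none of these 6 genes passed the test, with edgeR adjusted p from 0.51 for Ndrg1 to 0.994 for Pdk1. Without Alb/MDA-9 3 none passed either, and the log2 change was 0.0504 for Ndrg1 and 0.19 for Vegfa and Pdk1, 0.20 for P4ha2 and 0.22 for Bnip3 and Ankrd37.

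The histone demethylase gene Kdm3a, the MYC antagonist gene Mxi1, the mTORC1 inhibitor gene Ddit4 and the collagen prolyl hydroxylase gene P4ha1 were also lowest in Alb/MDA-9 3. Their levels there were 64.7, 22.2, 34.6 and 18.4 CPM, against lowest WT levels of 82.3, 31.3, 43.7 and 24.5 CPM. Higd1a, which encodes a mitochondrial protein, and Bnip3l, a relative of Bnip3, did not follow in full. Higd1a had 58.1, 75.8 and 73.4 CPM in WT, against 85.3, 111 and 73.7 CPM in Alb/MDA-9, and Bnip3l had 69.0, 64.3 and 75.3 CPM in WT, against 101, 91.6 and 65.5 CPM in Alb/MDA-9. Alb/MDA-9 3 lay within the WT range in both. Car9, the carbonic anhydrase gene often read as a hypoxia marker, had 6 reads over the 6 libraries and was not tested.

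Counted over the hypoxia members tested, Alb/MDA-9 3 was the lowest of the 6 libraries for 14 of 17 genes (82.4%), whereas it was lowest for 20.2% of all genes. For the glycolysis members it was lowest for 7 of 18 (38.9%), as often as WT 1. Alb/MDA-9 3 was also lowest for 5 of 12 hepatocyte markers (41.7%) and 7 of 18 other glycolysis genes (38.9%). For the Kupffer markers it was lowest for 2 of 12 (16.7%). Set against the mean of Alb/MDA-9 1 and 2, its median log2 difference was -0.68 over the hypoxia members, -0.38 over the glycolysis members and 0.00 over all genes, on log2 (CPM + 0.5). Alb/MDA-9 1 was the highest of the 6 libraries for 11 of 17 hypoxia members (64.7%), against 17.3% of all genes. These counts describe single libraries and carry no replicate error.

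**Figure D2:**
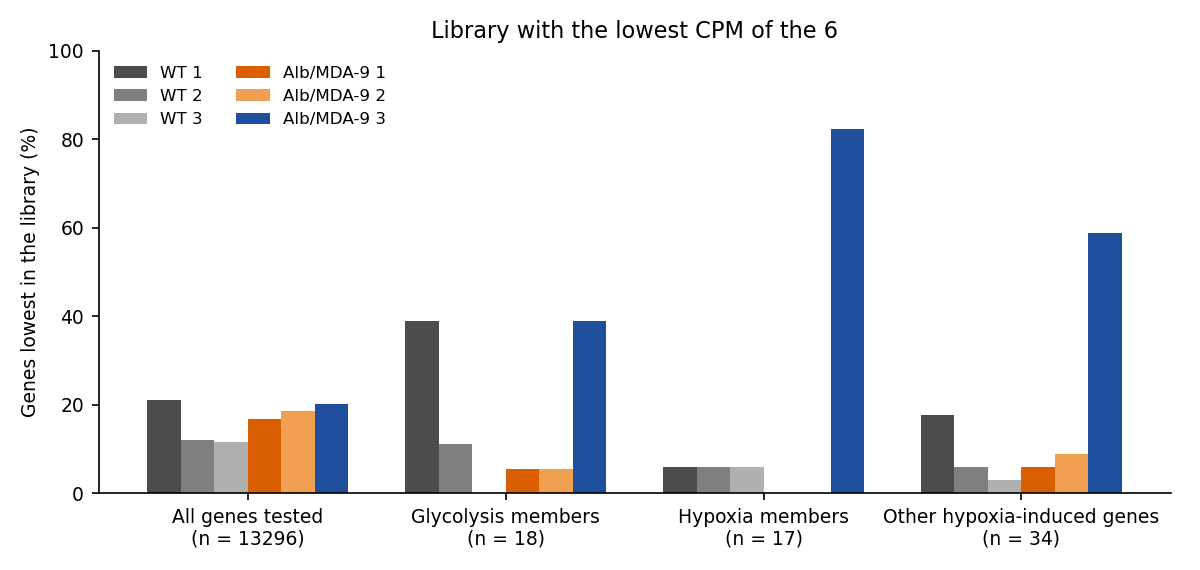
Share of genes, in percent, whose lowest CPM of the 6 libraries fell in each library, for all 13296 genes tested, the 18 glycolysis members, the 17 tested hypoxia members and 34 other genes known to be induced by low oxygen. The blue bar of Alb/MDA-9 3 stands at 20.2% for all genes, 38.9%, 82.4% and 58.8%.

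Without Alb/MDA-9 3, 8 glycolysis members rose and 2 fell, and 3 hypoxia members rose and 2 fell, where 8.60% of 13695 genes were called higher and 8.82% lower. The glycolysis genes that rose were Hk1, Hk2, Pfkp, Tpi1, Pgam1, Pkm, Ldha and Slc16a3, with log2 changes from 0.32 for Ldha and Pkm to 0.88 for Hk1. Those that fell were Eno2 and Gapdh. The hypoxia members that rose were Bnip3l (0.47), Higd1a (0.51) and Egln1 (0.24), and those that fell were Adm (-0.66) and Egln3 (-0.255). The median log2 change of the hypoxia members was then 0.19, with 13 of 17 above 0, against -0.08 and 5 of 17 with all libraries. This fit rests on 2 Alb/MDA-9 libraries. The library left out was the lowest for most hypoxia members, so a rise of their median without it is no independent result. It also lay below the mean of Alb/MDA-9 1 and 2 for 16 of 18 glycolysis members. The 8 glycolysis rises without it are therefore no independent result either. Without Alb/MDA-9 1 instead, the median of the hypoxia members was -0.29, with 3 of 17 above 0. In that fit 0 hypoxia members rose and 2 fell, and 0 glycolysis members rose and 3 fell. Of 13581 genes, 858 were then higher and 893 lower.

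**Figure D3:**
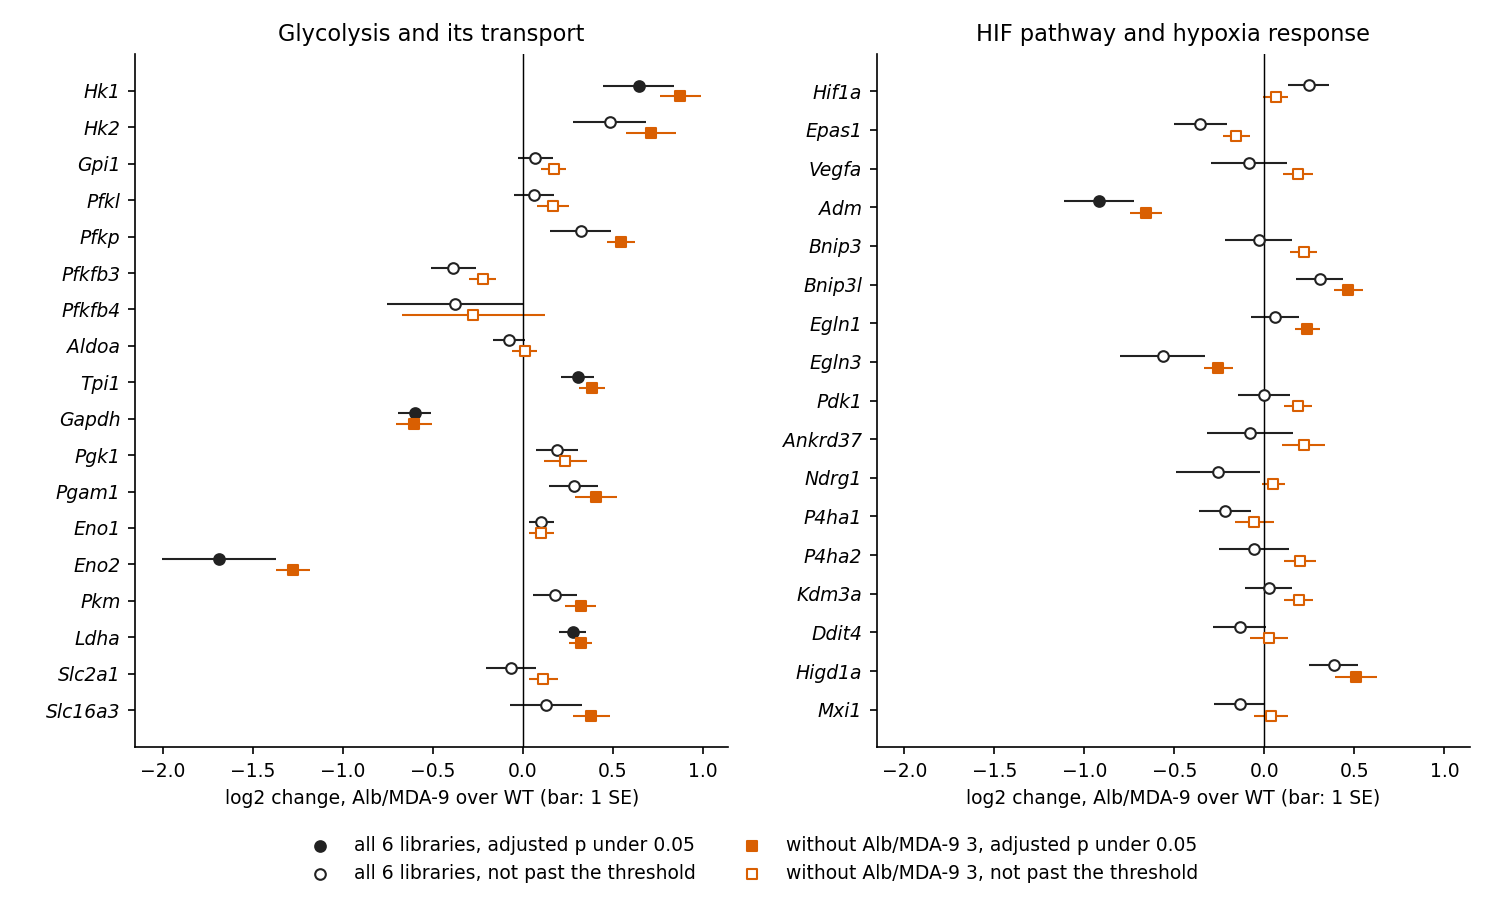
Log2 change of each tested member, Alb/MDA-9 over WT, with 1 SE, from all 6 libraries (black circles) and without Alb/MDA-9 3 (orange squares), filled where the edgeR adjusted p was under 0.05. Only 6 black circles are filled, while 15 orange squares are, and most orange squares of the right panel lie to the right of 0. Alb/MDA-9 3 lay below Alb/MDA-9 1 and 2 for most members, so the added rises without it are no independent result.

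Other genes of the same pathways were taken from lists. Of 18 tested genes for other glycolytic isoforms, carriers and pyruvate entry, 2 rose and 3 fell (27.8%), against 14.4% called over all genes. Slc2a2, the hepatocyte glucose carrier gene, had 69.6, 62.0 and 70.5 CPM in WT, against 26.3, 20.4 and 10.7 CPM in Alb/MDA-9 (log2 change -1.81, SE 0.21, edgeR adjusted p = 0.000142). Every Alb/MDA-9 library was below WT. Gckr fell by 0.28 on the log2 scale. Pklr, the liver pyruvate kinase gene, and the monocarboxylate carrier gene Slc16a7 rose, by 0.68 and 0.52.

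The balance between member genes and other isoforms of the same step was compared as log2 ratios of CPM per kb within each library, which do not depend on library scaling. The ratio of Slc2a1 to Slc2a2 was 4.01, 4.72 and 3.95 in WT and 12.8, 13.6 and 18.5 in Alb/MDA-9, a log2 difference of 1.81. Eno1 over Eno3 was higher as well (difference 0.76). Pkm over Pklr went the other way, from 2.14, 2.35 and 2.51 to 2.11, 1.75 and 1.20 (difference -0.50), as did Pfkfb3 over Pfkfb1 (difference -0.35). By gene, the log2 change was -0.06 for Slc2a1 and -1.81 for Slc2a2, and 0.18 for Pkm and 0.68 for Pklr. It was -0.39 for Pfkfb3 and -0.06 for Pfkfb1. Among these genes only Slc2a2 and Pklr passed the test. Without Alb/MDA-9 3 the difference was 1.65 for Slc2a1 over Slc2a2 and 0.54 for Eno1 over Eno3, but only -0.28 for Pkm over Pklr and -0.19 for Pfkfb3 over Pfkfb1. The groups did not overlap for these 4 ratios, but Pfkfb3 over Pfkfb1 was 3.38 in WT 1 and 3.36 in Alb/MDA-9 1. Eno3 had as few as 38 reads in a library, and neither Eno1 nor Eno3 passed alone (edgeR adjusted p = 0.352 and 0.109). Each of the 4 ratios reached p = 0.1 in an exact two-sided permutation test (0.114 adjusted over 8 pairs). That is the smallest p that 3 against 3 libraries allow. Ldha over Ldhb had exact permutation p = 0.9 and rests on few reads of Ldhb, at least 2 in a library.

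**Figure D4:**
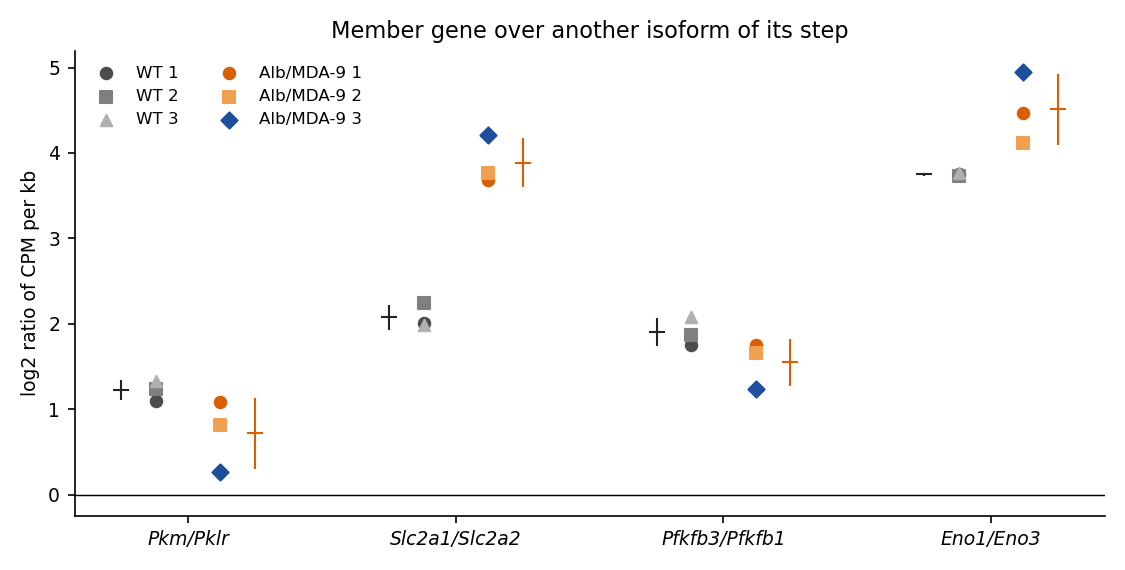
Log2 ratio of CPM per kb of a member over another isoform of its step in each library, grey symbols for WT and coloured symbols for Alb/MDA-9, with the mean and SD of the 3 libraries of each group beside them. Slc2a1 over Slc2a2 and Eno1 over Eno3 are higher in all Alb/MDA-9 libraries, by 1.81 and 0.76 on average, and Pkm over Pklr is lower, by 0.50.

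Of 10 tested genes for other parts of the HIF machinery, among them the partner gene Arnt and the ubiquitin ligase gene Vhl, 0 rose and 0 fell by edgeR. DESeq2 and limma voom with quality weights called 0 as well. By edgeR 1 had an unadjusted p under 0.05, a threshold at which the share of all genes was not counted. Without Alb/MDA-9 3, 1 was called higher, where 8.60% of all genes were. Without Alb/MDA-9 1, 1 was called lower, where 893 of 13581 genes were. Of 34 other tested genes known to be induced by low oxygen, 3 rose and 2 fell (14.7%), close to the 14.4% called over all genes. Bhlhe40, which encodes a transcriptional repressor, rose by 0.45, Wsb1 by 0.32 and the transferrin receptor gene Tfrc by 0.27 on the log2 scale. The endothelin gene Edn1 had 20.7, 16.9 and 16.6 CPM in WT, against 8.56, 6.99 and 10.8 CPM in Alb/MDA-9 (log2 change -1.04, SE 0.16, edgeR adjusted p = 0.00112). Pdk3 fell by 1.11. For 20 of these 34 genes (58.8%) Alb/MDA-9 3 was the lowest library. Named after its values were seen, Hmox1, the heme oxygenase gene, had 483, 461 and 451 CPM in WT, with 389 and 345 CPM in Alb/MDA-9 1 and 2, and 162 CPM in Alb/MDA-9 3. Hmox1 did not pass the test (log2 change -0.64, SE 0.22, edgeR adjusted p = 0.0778), and it is known to respond to several other stresses as well.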

How the data were processed

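The authors deposited raw read counts per gene from STAR, 1 table per library, per the file layout. The submitters' processing notes name STAR 2.7.9a, Trim Galore 0.6.6, FastQC 0.11.2, edgeR 3.18.1 and the build GRCm38, and the annotation release is not given in the sources used here. The reverse-strand count column was used, with 96.9% to 97.2% of stranded reads. The 4 rows that name no gene, such as reads mapped to several places (18.7% to 20.2% of reads), were left out. STAR counts only reads that map to a single place, so genes with near-identical copies lose reads.

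Symbols, coordinates and exon lengths came from GENCODE M21. A second gene identifier also named Aldoa was not used. Genes were filtered with filterByExpr (minimum count 10), scaled by TMM and tested with edgeR 4.0.16 (R 4.3.3) without covariates, with 4 residual degrees of freedom. Near-identical copies were found with blastn 2.17.0. Alternatives used DESeq2 1.42.0, limma 3.58.1, other scalings, filters and count columns, and each library left out in turn. The text accounts for all members. From the other lists of the pathways it names genes that passed the test, up to 6 per list, and the other isoforms of the compared pairs. Arnt, Vhl and Hmox1 are named besides these. Some genes of these lists and the pairs that hold them are not reported here. The members, lists and tests were chosen with earlier results of these data known.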

Additional observations from a re-analysis of the deposited data

How the results depend on the processing

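The falls of Eno2, Adm and Gapdh kept their direction under all 17 alternatives. Eno2 passed in all of them, and Adm and Gapdh in 16, both failing in the test against a fold of 1.5. The rises of Hk1, Tpi1 and Ldha kept their direction in all 17 and passed in 7, 7 and 8. Glycolysis members called higher numbered 0 with library totals, upper-quartile factors, the replicate block or the test against a fold of 1.5, 5 without a low-count filter 1 when 1 CPM was required in every library, 2 with DESeq2 and 4 with limma voom. They numbered 0 to 8 when 1 library was left out. Glycolysis members called lower numbered 1 in the test against a fold of 1.5, and 3, with Pfkfb3 added, with library totals, upper-quartile factors, no filter, DESeq2, limma voom or the replicate block, and 2 to 3 when 1 library was left out. Hypoxia members called higher numbered 3 without a filter, 1 with DESeq2 (Higd1a), 2 with limma voom, 1 with the replicate block (Higd1a) and 0 to 3 when 1 library was left out. Those called lower numbered 2 with library totals, 4 without a filter, 2 with limma voom, 2 with the replicate block, 0 in the test against a fold of 1.5 and 1 to 2 when 1 library was left out. The cause of these differences was not tested.

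Several changes that did not pass with all libraries also changed sign. With library totals they were -3.63e-06 for Eno1, -0.085 for Kdm3a, -0.036 for Gpi1, -0.044 for Pfkl and -0.051 for Egln1. Upper-quartile factors gave -0.018 for Kdm3a, and limma voom gave 0.022 for Pdk1 and 0.0043 for Bnip3. The log2 ratio of Ldha to Ldhb differed by 0.044 when summed with pseudogene copies and by -0.52 to 0.33 when 1 library was left out. Over the fits that left out 1 library, log2 changes ran from -0.16 to 0.0101 for Aldoa, from -0.33 to 0.22 for Ankrd37, from -0.25 to 0.22 for Bnip3, from -0.32 to 0.024 for Ddit4, from -0.045 to 0.24 for Egln1, from -0.032 to 0.17 for Gpi1, from -0.13 to 0.19 for Kdm3a and from -0.29 to 0.037 for Mxi1. They ran from -0.48 to 0.0504 for Ndrg1, from -0.21 to 0.20 for P4ha2, from -0.13 to 0.19 for Pdk1, from -0.041 to 0.17 for Pfkl, from -0.052 to 0.38 for Slc16a3, from -0.25 to 0.11 for Slc2a1 and from -0.31 to 0.19 for Vegfa. Over all genes, the test against a fold of 1.5 called 84 higher and 156 lower. Leaving out 1 library gave 503 to 1178 higher and 515 to 1208 lower. Without a low-count filter 1071 of 24459 genes were higher and 1296 lower. With 1 CPM required in every library 814 of 11321 were higher and 782 lower. Of 13296 genes, upper-quartile factors gave 722 higher and 1087 lower, DESeq2 986 and 958, and limma voom 1305 and 1291.

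The replicate numbers gave no sign of pairing, with deviations of same-numbered libraries from their group means correlated at -0.05, -0.0037 and -0.07. Deviations from a mean of 3 libraries constrain each other, so these values cannot exclude a pairing. With the replicate block 775 of all genes were higher and 826 lower, against 977 and 943. Library totals gave 525 and 1622. Depth limits Car9, Ldhb and Pfkfb4, which had 6, 26 and 223 reads in all.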
